A study of Mus musculus with 2 samples.

Results

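The transcripts described here are annotated antisense noncoding RNAs that were detected in mouse hippocampus. They were chosen as transcripts of class antisense with a TPM, a level scaled for transcript length and library depth, of at least 0.5 in the alignment-free tables of both libraries, leaving out Kcnq1ot1, Airn and symbols that begin with Snhg or Mir. The rule kept 688 transcripts of 550 genes, out of 4511 antisense transcripts of 3091 genes and 141767 annotated transcripts in all. It left out 17 transcripts of 3 genes by name (Snhg14, Kcnq1ot1 and Airn). A further 150 antisense transcripts reached the threshold in replicate 1 only and 183 in replicate 2 only, and 1919 were at 0 in both libraries.

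The 2 libraries were made from total RNA of the hippocampus (tissue labelled as a layer of it), 300 ng each with ERCC spike-ins. The donors were male 5xFAD/CAST animals, adult and 8 to 10 months old, and the labels number the libraries as biological replicates 1 and 2; there was 1 group. In 5xFAD mice a Thy1 promoter drives a human APP transgene, and CAST is a wild-derived strain. Both libraries carry the transgene label and the same donor identifier, so the spread between them may be technical, and no comparison between conditions was possible. The alignment-based gene tables summed to 26128897 and 28689423 expected counts, which puts a single count at 0.0383 and 0.0349 CPM (counts scaled to depth). All 4 excitatory, 4 astrocyte and 3 CA1 markers examined exceeded 1 TPM in both libraries. Choroid plexus and striatal markers were also present, and stood higher in replicate 1.

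Antisense RNAs are transcribed from the strand opposite to another gene. Some start near the promoter of the sense gene, some lie inside its introns, and some run across its exons, and a few are known to regulate the gene they overlap. Many share bases with the sense transcript in reverse orientation, so only strand-specific counting can tell the pair apart. The library kit named in the protocol keeps strand, but the strand setting of the quantification is not given in the sources used here.

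Members of 2 kinds are shown first by sequence, because the deposited tables differed most for the one and little for the other. Capitals mark bases inside a 31-base word that also occurs, on the same strand, in an annotated transcript of another gene. The first pair are bases 851 to 1000 of Gm48765-201 on chromosome 13 and bases 1400 to 1549 of Gm47578-201 on chromosome 10, both from the GENCODE M21 transcripts. These windows open an identical stretch of 742 bases. The third is the first 150 bases of Gm13375-201 on chromosome 2, which shared no such word.
Gm48765-201: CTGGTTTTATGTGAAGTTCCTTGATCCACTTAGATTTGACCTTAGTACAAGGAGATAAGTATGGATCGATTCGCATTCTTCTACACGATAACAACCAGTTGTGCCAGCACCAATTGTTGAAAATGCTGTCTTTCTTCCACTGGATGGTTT
Gm47578-201: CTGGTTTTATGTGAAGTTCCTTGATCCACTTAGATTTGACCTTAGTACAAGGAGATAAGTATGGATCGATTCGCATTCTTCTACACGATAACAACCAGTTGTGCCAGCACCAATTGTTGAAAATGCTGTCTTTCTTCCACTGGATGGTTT
Gm13375-201: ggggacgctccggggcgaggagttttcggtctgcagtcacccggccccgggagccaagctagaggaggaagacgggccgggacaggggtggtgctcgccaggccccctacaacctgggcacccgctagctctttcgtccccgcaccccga

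The alignment-free values that chose the members are given as a description. Members had a median of 1.27 TPM in replicate 1 and 1.22 TPM in replicate 2, with highest values of 77.6 and 74.4 TPM. Most were low. The mean of both libraries was under 1 TPM for 250 members and over 10 TPM for 15. At the threshold, Nr6a1os-201 (0.501 and 0.639 TPM) and A330015K06Rik-202 (0.525 and 0.5 TPM) fell just inside, and Gm38225-201 (0.510 and 0.497 TPM) and Gm49012-201 (0.527 and 0.498 TPM) fell just outside. In 157 members the estimated count was under 10 in at least 1 library, so single values at this level rest on few reads. Members had a median length of 999 bases and 2 exons, against 734 bases and 3 exons for the 3793 other antisense transcripts.

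The question put to the second table was whether the same transcripts are seen when reads are first aligned. After alignment, 386 members (56.1%) of 313 genes also reached 0.5 TPM in both libraries, and 84 (12.2%) were at 0 in both. The median log2 ratio of alignment-based over alignment-free TPM, with 0.1 added to each value, was -0.49 ± 0.10 (SD, n = 2). Choosing members by the alignment-free value fixes part of this direction, and no test was made. Looked at from the other table, 435 antisense transcripts reached 0.5 TPM by alignment, of which 386 were members and 49 were not. By the same threshold and ratio, transcripts of class lincRNA (long intergenic RNAs) reached 49.1% of 1264 with a median of -0.92, retained-intron transcripts 87.8% of 12549 with -0.04, and protein-coding transcripts 83.9% of 27137 with 0.05. Antisense members lay between lincRNA and protein-coding transcripts on both measures, but their median was not particular to them. The classes nonsense-mediated decay, processed transcript and TEC had medians of -0.49, -0.52 and -0.14, with 65.2%, 67.6% and 74.5% reaching the threshold.

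The highest members by alignment-free TPM divided into 2 sorts. Gm48765-201, which lies partly inside Fars2 on the other strand, had 77.6 and 74.4 TPM without alignment and 0.10 and 0.07 TPM with it. Gm47738-201 had 38.5 and 38.1 TPM against 0.13 and 0.15 TPM, and Gm47578-201 had 34.9 and 30.6 TPM against 0.12 and 0.13 TPM. Gm29084-201, within Pard3b, had 17.2 and 17.0 TPM and was listed at 0 in both alignment-based libraries. In counts, Gm48765-201 held 3912 and 3781 reads in the alignment-free table, and 4 after alignment in replicate 1. 4933427J07Rik-201 (15.5 and 12 TPM) and Gm48754-201 (13.9 and 13.5 TPM) were likewise under 0.1 TPM after alignment. These were 6 of the 10 highest members, and in each of them both libraries showed the contrast.

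The other 4 of the 10 were seen in both tables. B230334C09Rik-201, which shares exon bases with Lrrc40 on the other strand, had 22.6 and 23.2 TPM without alignment and 25.6 and 24.8 TPM with it. Zfas1-205, a transcript of the small nucleolar RNA host gene antisense to Znfx1, had 22.6 and 22.3 TPM against 17.4 and 15.9 TPM. Tug1-202 had 15.0 and 15.4 TPM against 8.10 and 7.76 TPM, and Tug1-205 had 13.5 and 14.1 TPM against 11.2 and 11.0 TPM. Tug1 is a widely expressed long noncoding RNA. For these 4 the tables differed by less than 2-fold in each library.

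**Figure D1:**
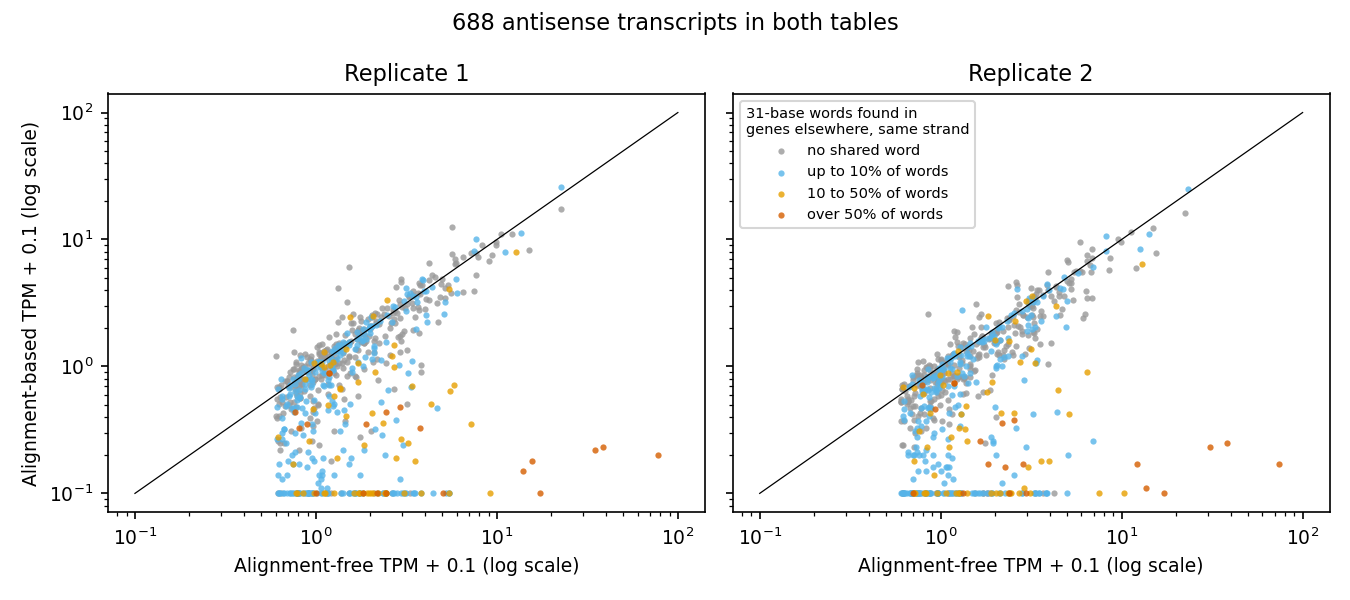
Alignment-free TPM (x axis) against alignment-based TPM (y axis) of 688 antisense transcripts, 1 panel per library, both with 0.1 added and on log scales, with the line of equal values. Colour gives the share of 31-base words found on the same strand in genes elsewhere. The transcripts in which over 50% of words are shared reach 77.6 TPM on the x axis and lie at the bottom of the y axis, apart from a few at low TPM.

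How the ratio varied among members was described over 13 ways of splitting them, all chosen after the values were seen. The clearest gradient followed shared sequence. Each member was cut into overlapping words of 31 bases, and each word was looked for in the transcripts of other genes. In 372 members (54.1%) at least 1 word also occurred on the same strand in another gene, against 900 of the 3793 other antisense transcripts (23.7%). Members were longer (median 999 against 734 bases) and were chosen by alignment-free TPM. How much of this contrast comes from length or from the choice was not tested. The 316 members with no same-strand word in another gene had a median log2 ratio of -0.21 ± 0.09 (SD, n = 2). Of these 316, 230 reached 0.5 TPM after alignment. The ratio was -0.87 in 271 members with up to 10% of words shared, -2.11 in 77 with 10 to 50%, and -3.04 ± 0.11 (SD, n = 2) in 24 with over 50%. Of these 24, 6 reached 0.5 TPM after alignment.

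The place of the shared words was read next. In 4 of the 24 members all shared words belonged to a gene annotated at the same place on the same strand. They were Gm43079-201, which overlaps Acad9, and Zfhx2os-201, Zfhx2os-202 and Gm20687-201, which overlap one another. All 4 reached 0.5 TPM after alignment, with a median ratio of -0.31. The other 20 shared over 50% of their words with genes elsewhere in the genome, and their median ratio was -3.81. Gm48765-201 shared 94.0% of its words with 185 other genes, most with the lincRNA gene Gm26905 on chromosome 8. Gm26905 stood at 104.7 and 96.0 TPM without alignment and at 0.03 and 0.06 TPM with it, the same contrast as in the member. Gm47578-201 shared 90.4% of its words with 375 genes, Gm26905 first again. The printed stretches show the identity of these members with each other, not with Gm26905.

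Several members were copies of each other. Gm3892-202 and Gm10593-201, on chromosome 4, were identical over their 3539 bases and carried the same values, 1.08 and 1.09 TPM without alignment and 0.78 and 0.64 TPM with it. Gm43391, Gm21847 and Speer4cos on chromosome 5 shared most of their words among themselves, and their 6 transcripts were at or under 0.34 TPM after alignment. Such members are not independent of each other.

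The words did not order the members under every definition. When words on either strand were counted, the ratio was -0.37 in 125 members with none and -0.37 in 87 with over 50%, with -0.72 and -0.51 between. Words on the reverse strand alone gave -0.40 with none and -0.23 with over 50%. In lincRNA transcripts, words on the same strand gave -0.21 with none and -3.35 with over 50%, and words on the reverse strand gave -0.29 and -2.60. Windows of low complexity, with at most 6 distinct 3-base words, were present in 136 members, whose ratio was -0.75 against -0.46 in the rest. Of 175 members that were 4-fold or more lower after alignment, 150 shared a word on the same strand and 25 shared none. Igf1os-201 shared 2.14% of its words and had 4.34 and 3.76 TPM without alignment, but was listed at 0 in both libraries with it. No repeat annotation was used here, and what makes the tables differ was not tested.

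**Figure D2:**
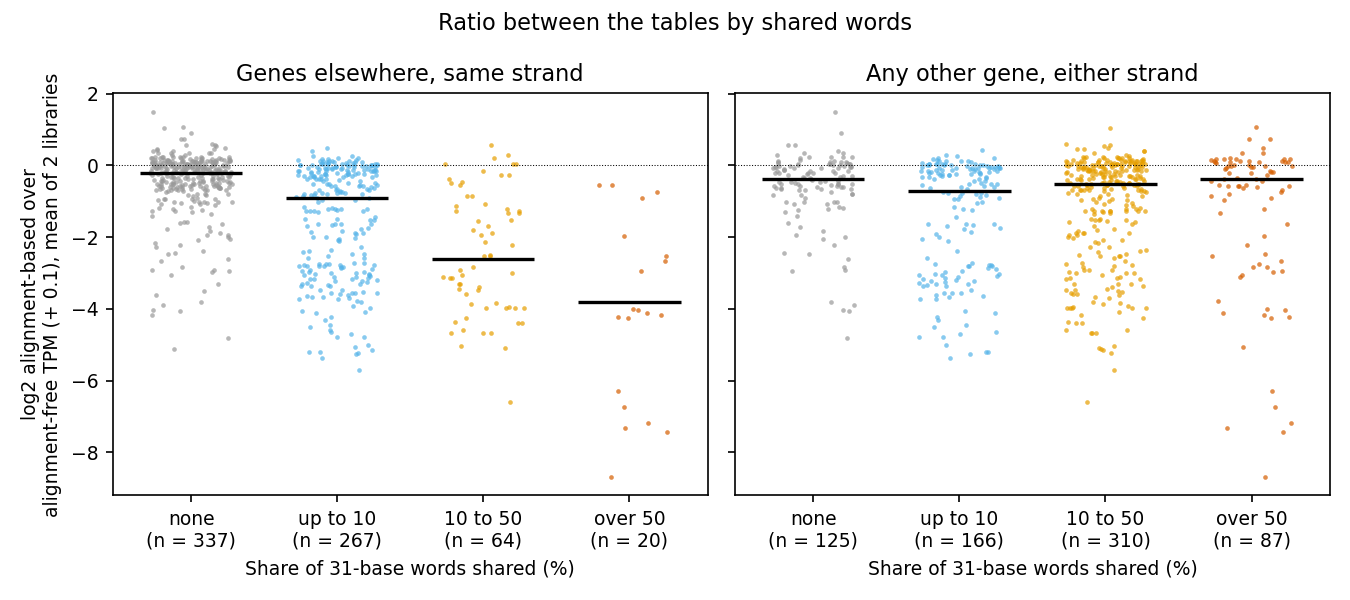
Each point is 1 of 688 antisense transcripts, and the y axis is its log2 ratio of alignment-based over alignment-free TPM (0.1 added, mean of both libraries). Transcripts are grouped by the percentage of 31-base words found in genes elsewhere on the same strand (left) or in any other gene on either strand (right), and bars are the mean of both libraries' medians. The bars fall from -0.21 to -3.81 on the left and start and end at -0.37 on the right.

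Position against the opposite gene was described from the annotation. Of the members, 417 (60.6%) shared at least 1 exon base with a gene on the other strand, 100 (14.5%) lay inside such a gene without sharing exon bases, 59 (8.58%) lay partly inside one, and 112 (16.3%) lay outside. Among the other antisense transcripts 54.9% shared exon bases and 25.3% lay inside without sharing. The shared part had a median of 258 bases, or 21.7% of the transcript, and the opposite gene was protein-coding for 388 of the 417.

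Members that shared exon bases were closer between the tables than those inside introns. Their median log2 ratio was -0.30 ± 0.10 (SD, n = 2), against -1.62 ± 0.46 for members inside a gene, -1.18 for those partly inside and -0.68 for those outside. Among members with no same-strand word in another gene the spread narrowed to -0.15, -0.23, -0.48 and -0.35 in the same order. The low ratio of members inside a gene was not seen in the 39 of them without shared words.

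Because the strand setting is not given, the level of the opposite gene was set beside the members that share its exons. Among the 200 exon-sharing members with no same-strand word elsewhere, the alignment-based median in replicate 1 was 1.11 TPM where the opposite gene was under 10 TPM (88 members), 0.98 TPM at 10 to 50 TPM (83) and 1.08 TPM at 50 TPM or more (29). In replicate 2 it was 0.94, 1.03 and 1.10 TPM. The 3 medians showed no order in replicate 1 and rose slightly with the opposite gene in replicate 2. The tables' ratio was -0.10, -0.21 and -0.11 over the same groups.

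Members named after a sense gene, with that gene's symbol plus os, allow each pair to be compared. There were 81 such transcripts of 56 genes, and every sense gene was protein-coding. Of the 81 transcripts, 51 (63.0%) reached 0.5 TPM after alignment, against 335 of the other 607 (55.2%). For the pairs, levels are alignment-based gene TPM. The sense gene was at 1 TPM or more in both libraries in 51 of 56 pairs (91.1%), against 162 of 209 os-named pairs without a member (77.5%) and 60.4% of all protein-coding genes. By the mean of both libraries' log2 ratios the sense gene was higher in 49 pairs and the antisense gene in 7. The sense gene was higher in each library in 48 pairs and the antisense gene in 6, and 2 pairs (Ttc39aos1 and Tbx3os1) changed direction between libraries. The median log2 ratio of sense over antisense TPM, with 0.1 added, was 3.21 ± 0.19 (SD, n = 2).

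Among the antisense genes of the pairs, Rab10os was the most abundant. It had 18.67 and 18.82 TPM, and Rab10, a small GTPase of vesicle traffic, had 58.83 and 62.00 TPM. Tmem147os, which starts 39 bases from Tmem147 on the other strand, had 13.26 and 13.68 TPM against 52.05 and 52.68 TPM. In both pairs the sense gene was higher in each library and the values did not overlap. Rab26os, inside Rab26, a small GTPase of secretory granules, had 13.37 and 9.38 TPM against 29.37 and 28.86 TPM. These Rab26os values rest on 51 and 36 expected counts, and without alignment the gene stood lower, at 6.49 and 5.80 TPM. Zfhx2os had 8.50 and 6.94 TPM against 21.64 and 23.25 TPM for Zfhx2, a zinc finger homeobox gene. Rab26os and Zfhx2os were lower in replicate 2, while Rab10os and Tmem147os were nearly level. Neither Rab26os nor Zfhx2os was called in the binomial comparison of replicates below, where their exact adjusted p was 0.174 and 0.00292. Zfhx2os was not called because it was less than 2-fold apart. Sp3os had 7.09 and 9.04 TPM against 28.41 and 26.10 TPM for the transcription factor gene Sp3.

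Of the developmental transcription factor genes listed for this work, 4 had an antisense partner with members, and they did not share a direction. The sense gene was higher in 2 of these pairs, Zeb2 and Emx2, while Dlx6os1 and Tbx3os1 are among the pairs described next, with a negative mean ratio. Zeb2os had 3.74 and 3.69 TPM, and Zeb2, a zinc finger repressor, had 138.91 and 166.94 TPM. Emx2os had 1.87 and 1.48 TPM against 9.93 and 9.33 TPM for Emx2, a homeobox gene of the dorsal forebrain. Outside that list, Prox1os had 3.18 and 3.12 TPM against 25.87 and 31.23 TPM for Prox1, a homeobox gene of dentate granule cells. Junos had 2.78 and 3.50 TPM against 35.01 and 38.31 TPM for Jun, an immediate early gene. Prox1os and Junos were picked after their values were seen. The widest gap among pairs with an antisense gene at 0.5 TPM or more in both libraries was that of Chn1os1, at 0.82 and 1.44 TPM inside Chn1 at 554.88 and 672.98 TPM. These Chn1os1 values rest on 8 and 15 expected counts. Chn1os1-201 shares 83.8% of its bases with exons on the other strand, and whether reads of Chn1 enter its level was not tested.

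In 7 pairs the antisense gene was higher by that mean. Brip1os had 3.65 and 3.34 TPM, whereas Brip1, a DNA repair helicase gene that starts 177 bases away, had 0.10 and 0.07 TPM. These Brip1 values rest on 12 and 9 expected counts. Without alignment the gap was smaller, with Brip1os at 3.09 and 2.96 TPM and Brip1 at 1.11 and 1.09 TPM. Dlx6os1, which spans Dlx6, a homeobox gene of inhibitory neurons, had 10.43 and 8.84 TPM against 5.53 and 2.59 TPM. Prox2os had 2.35 and 3.90 TPM against 1.13 and 1.44 TPM. Hmgb4os (0.66 and 0.25 TPM) and Speer4cos (0.23 and 0.16 TPM) had sense genes listed at 0. Tspan32os had 0.38 and 0.67 TPM against 0.32 and 0.31 TPM, close to equal in replicate 1. Tbx3os1 had 1.44 and 1.62 TPM, from 11 and 17 expected counts, against 1.72 and 1.05 TPM, so its direction differed between the libraries. Without alignment Tbx3os1 was higher in both, at 4.30 and 3.98 TPM against 2.02 and 1.59 TPM. Ttc39aos1, counted among the 49, had 1.66 and 1.30 TPM against 2.36 and 1.19 TPM.

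At the low end, Zfp286os and Runx2os3 were at 0 in both alignment-based libraries, and Pitpnm2os2, Kirrel3os, Igf1os, Dbhos and Macrod2os1 were at or under 0.07 TPM. These 7 genes, like all members, were chosen by their alignment-free values. They were not the only pairs under 0.5 TPM after alignment. Far2os1 (0.48 and 0.23 TPM) and Speer4cos (0.23 and 0.16 TPM) were under it in both libraries, and some others in 1 library.

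**Figure D3:**
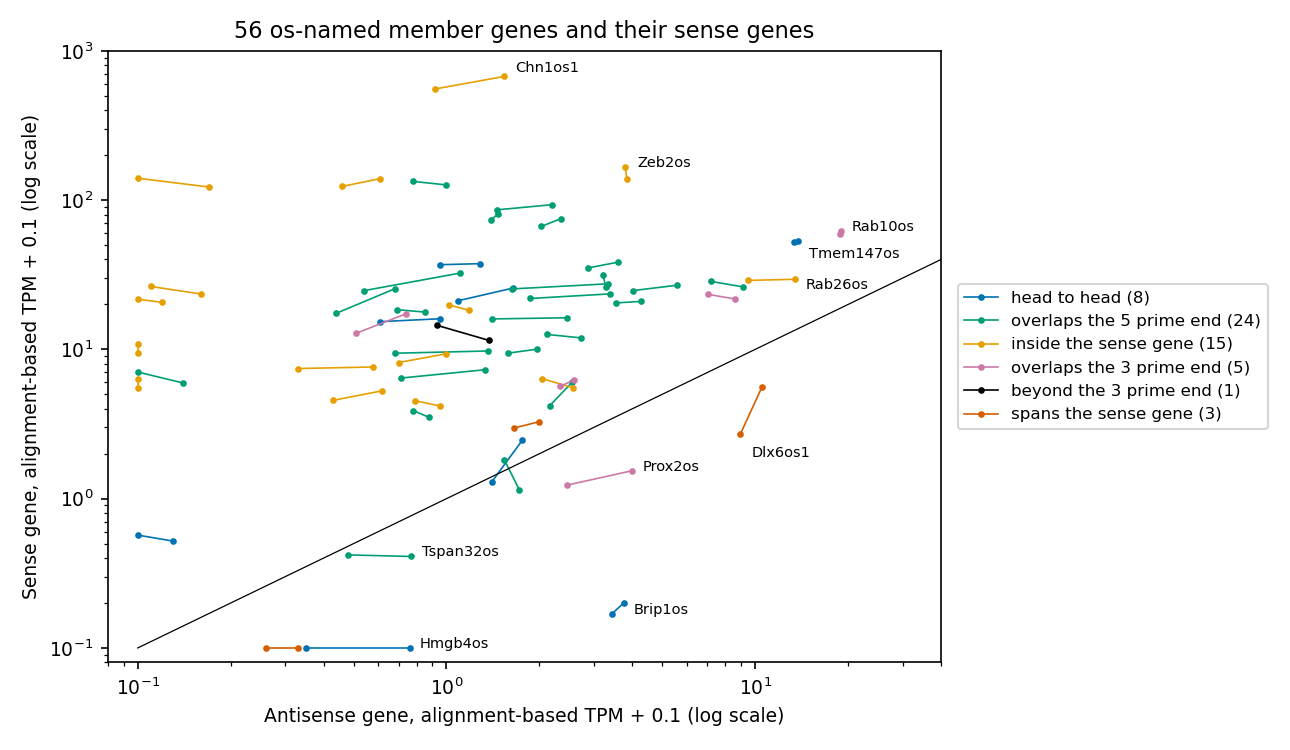
Alignment-based gene TPM of 56 antisense genes (x axis) and of the sense gene each is named after (y axis), with 0.1 added and on log scales. The 2 joined points of a pair are its libraries, colour gives the layout, and the line marks equal levels. Most pairs lie above the line, and Brip1os and Dlx6os1 lie furthest below it among those over 1 TPM.

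Layout was taken from the annotated ends of both genes. The antisense gene overlapped the 5′ end of the sense gene in 24 pairs, lay inside it in 15, was head to head without overlap in 8, overlapped the 3′ end in 5, spanned it in 3 and lay beyond the 3′ end in 1. Starts were within 1000 bases of each other in 25 of 56 pairs (44.6%), against 34 of 209 pairs without a member (16.3%). The antisense gene had a median of 1.48 and 1.55 TPM in the 5′ overlapping pairs, 1.20 and 1.08 TPM in head-to-head pairs, and 0.52 and 0.51 TPM inside the sense gene. The log2 ratio of sense over antisense was 3.12 ± 0.06, 2.10 ± 0.19 and 5.32 ± 0.20 in these layouts (SD, n = 2). The inside pairs include Pitpnm2os2, Kirrel3os, Macrod2os1, Zfp286os and Runx2os3, which were at or under 0.07 TPM after alignment. Their ratios, 5.89 to 9.97, depend on the 0.1 added and raise the median of that layout. Of the other genes that low, Igf1os overlaps the 5′ end and Dbhos is head to head. Across the 56 pairs the levels of sense and antisense genes had a Spearman correlation of 0.25, from the same 2 libraries, given as a description.

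Promoter windows were compared because so many pairs start close together. RefSeq promoters (GRCm38.p6, 250 bases before to 50 after the start) were found for 238 of 550 member genes, 36 of them os-named, and 121 lay within 50 bases of the GENCODE start. The GC box GGGCGG, on either strand, was in 63 of these 121 (52.1%), in 25.5% of 499 other antisense genes, in 50.5% of 10854 protein-coding genes and in 45.7% of all 13123 genes matched the same way. CCAAT, on either strand, was in 40.5% of member windows and 39.5% of all, and the TATA box TATAAA in 8.26% and 12.3%. Member windows held a median of 15 CpG dinucleotides, as did protein-coding genes, against 5 in the other antisense genes. GC boxes and CpGs overlap in sequence, and a match describes letters in the window only.

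The windows of 3 of the higher os-named genes are printed, because they show a start with a TATA box and several CCAAT boxes, and 2 starts with GC boxes. Capitals mark the letters of these 3 motifs on either strand. Rab26os lies at chr17:24528001-24528300 on the plus strand, with 11 CpGs. Kcnmb4os2 lies at chr10:116472913-116473212 on the plus strand, and Zbtb11os1 at chr16:55974568-55974867 on the minus strand, with 19 and 17 CpGs.
Rab26os: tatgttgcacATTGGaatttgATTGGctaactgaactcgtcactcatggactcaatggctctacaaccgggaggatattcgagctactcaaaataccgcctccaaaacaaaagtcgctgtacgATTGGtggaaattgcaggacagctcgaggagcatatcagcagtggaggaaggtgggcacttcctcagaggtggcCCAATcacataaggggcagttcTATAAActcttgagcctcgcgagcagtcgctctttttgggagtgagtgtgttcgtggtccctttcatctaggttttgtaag
Kcnmb4os2: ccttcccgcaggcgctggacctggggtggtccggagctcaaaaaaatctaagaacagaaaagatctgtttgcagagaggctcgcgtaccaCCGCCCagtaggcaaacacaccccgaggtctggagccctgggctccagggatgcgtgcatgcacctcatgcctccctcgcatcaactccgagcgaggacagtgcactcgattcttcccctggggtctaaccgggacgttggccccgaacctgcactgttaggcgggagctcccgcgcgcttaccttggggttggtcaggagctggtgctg
Zbtb11os1: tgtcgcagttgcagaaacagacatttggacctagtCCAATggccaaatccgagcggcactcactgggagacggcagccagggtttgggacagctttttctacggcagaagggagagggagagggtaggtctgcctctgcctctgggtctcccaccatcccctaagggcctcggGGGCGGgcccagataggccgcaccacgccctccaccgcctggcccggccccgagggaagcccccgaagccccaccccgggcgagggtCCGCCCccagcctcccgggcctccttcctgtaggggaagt
The Rab26os window held 4 CCAAT boxes, a TATA box and no GC box. The Kcnmb4os2 window held 1 GC box and no CCAAT box, and the Zbtb11os1 window held 2 GC boxes and 1 CCAAT box. By level, Kcnmb4os2 had 3.92 and 5.47 TPM beside Kcnmb4 (a potassium channel subunit gene) at 24.65 and 26.77 TPM. Zbtb11os1 had 3.44 and 4.17 TPM beside Zbtb11 (a zinc finger gene) at 20.37 and 20.86 TPM.

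Lists of antisense gene symbols from development, imprinting and neurons were then read, and some of the symbols had no entry of any class. Among all 3091 genes with an antisense transcript, 550 held a member. Of 20 antisense genes of developmental transcription factors, 12 were annotated as antisense and 4 held members (Dlx6os1, Emx2os, Zeb2os and Tbx3os1). Hoxa11os and Hoxd3os1, which lie in Hox clusters, were at 0 in both tables and libraries. Of the imprinted and X-linked list, Nespas (0.21 and 0.21 TPM) and Tsix (0.40 and 0.25 TPM) were annotated as antisense and neither was a member. Of 13 symbols listed for neuronal genes, 4 were annotated as antisense and none of these was a member. Among these 4, Map2k3os had 0.28 and 0.87 TPM, and Uchl1os 0.31 and 0.10 TPM. The rest of the 13 had no entry of any class, so the list says little about neuronal genes in general. Kcnmb4os2, named for a potassium channel subunit gene, held members and was not on the list. The remaining list of 10 gave 3 genes with members, Zfas1 at 30.49 and 30.38 TPM, Brip1os, and Rab26os. These gene levels are alignment-based.

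Larger values after alignment were rarer and smaller. No member was 4-fold or more higher after alignment, and 147 were higher at all. Among members with 50 or more estimated counts in both libraries of a table, the largest rise was that of E130307A14Rik-210, from 2.84 and 4.97 TPM to 4.81 and 6.59 TPM. It was followed by 6330403L08Rik-201, from 4.10 and 4.90 TPM to 6.48 and 6.76 TPM. Dlx6os1-202 rose from 3.79 and 3.79 TPM to 4.73 and 4.4 TPM. In each of these the alignment-based value was higher in both libraries.

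The replicates were compared by an exact conditional binomial test of TMM-scaled expected counts, two-sided with Benjamini-Hochberg adjustment over 16977 genes with a mean of at least 20 counts. Its p-values weigh these libraries against each other with counting error as the only error. A gene was called with an adjusted p under 0.05 and more than 2-fold apart, which held for 1.85% of all genes tested (1.44% higher in replicate 1 and 0.406% higher in replicate 2). Of the 550 member genes 253 passed the count filter and 2 were called (0.791%). Gm43079 had 62 and 22 counts, a log2 ratio of -1.60 with an exact adjusted p of 3.09e-05. Gm15265, opposite Pi4kb, had 12 and 34 counts, a log2 ratio of 1.34 with an exact adjusted p of 0.021. In the alignment-free counts, summed per gene, 3 of 384 member genes were called, against 1.64% of all 19053 genes tested, and Gm43079 was the only one called in both tables. Gm15265 had 12 and 28 counts there, a log2 ratio of 1.07 with an exact adjusted p of 0.107, and was not called. The other calls there were D430036J16Rik and Gm11423. At any fold, 18 member genes (7.11%) had an adjusted p under 0.05, against 18.8% of all genes. The median absolute log2 ratio was nevertheless larger in the tested member genes, 0.25 against 0.12 in all tested genes. Only 132 of the 253 had a mean of at least 50 counts. The test has less power at low counts. The rule also asked for 0.5 TPM without alignment in both libraries, which leaves out transcripts that were low in 1 of them. For both reasons the lower shares do not show that members were steadier.

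Gm43079 is the gene whose words lie within Acad9, which holds 94.9% of the words of Gm43079-201 on the same strand. The counts of Gm43079 may thus depend on how shared reads were divided in either table. The binomial test leaves that error out. Gm43079 stood at 7.44 and 2.45 TPM, and Acad9 at 20.19 and 22.32 TPM. In the alignment-free table Gm43079-201 had 9.33 and 4.47 TPM, the same direction. Markers of other tissue differed between the libraries. All 6 choroid plexus markers were called higher in replicate 1 (summed 1193 and 182 TPM), as were 6 of 7 striatal markers (158 and 63.2 TPM), and none of either list was at 0. Dlx6os1 had a log2 ratio of -0.32 and Dlx6 one of -0.82 in replicate 2 over replicate 1. Their exact adjusted p was 0.00404 and 0.0046 in the binomial test, and neither was called because both were less than 2-fold apart. Without alignment Dlx6os1 was nearly level, at 11.2 and 11.5 TPM, while Dlx6 had 6.10 and 2.28 TPM. The relation of these 2 genes to the striatal markers was not tested. In bulk tissue, fewer cells of a type and less RNA per cell cannot be told apart. Over 28 os-named pairs with both genes tested, 14 moved in the same direction between libraries.

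**Figure D4:**
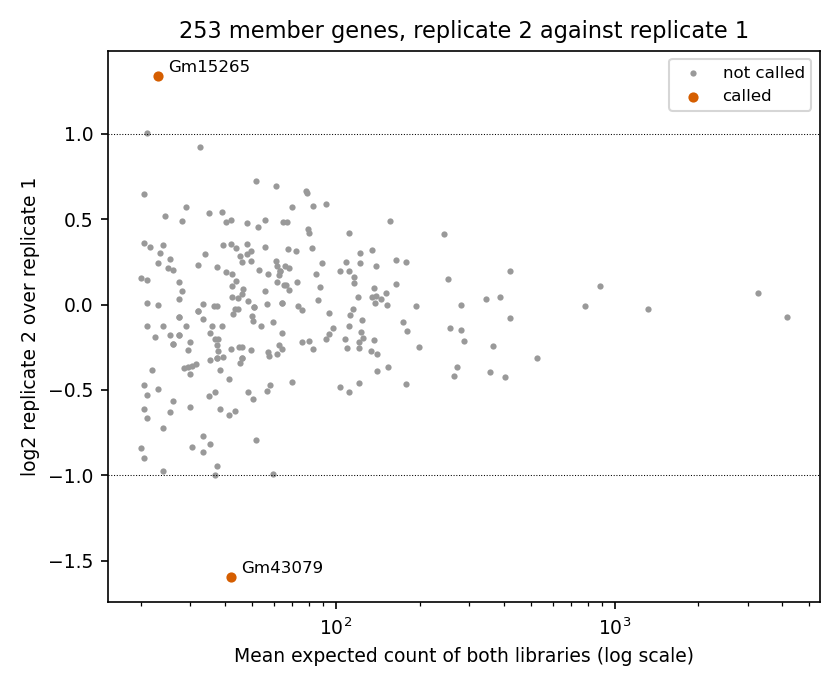
The log2 ratio of replicate 2 over replicate 1 (y axis, TMM-scaled) of 253 member genes against their mean expected count (x axis, log scale), with dotted lines at 2-fold. The 2 called genes, Gm43079 and Gm15265, are coloured, and both lie under 50 counts.

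Over all members the tables differed in rank as well as level. The Spearman correlation between alignment-free and alignment-based TPM across the 688 transcripts was 0.449 in replicate 1 and 0.536 in replicate 2, and 0.743 and 0.789 across the 316 with no same-strand word in another gene. The transcripts of a library share its reads and depth, so these are descriptions. The 24 members with over 50% of words shared held 24.6% and 22.6% of the members' alignment-free counts, and 2.35% and 1.82% of their alignment-based counts.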

How the data were processed

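Per notes that accompany the libraries, the authors made for each an alignment-free transcript table, and transcript and gene tables from alignments, on mm10 with GENCODE M21. Which programs did so is not given in the sources used here. Per the file headers, expected counts are estimates by the authors and need not be whole (they were rounded for the test). TPM and FPKM are the authors' length- and depth-scaled levels. IsoPct, a deposited percent of the gene's TPM, and interval bounds of TPM were read too. The members and gene lists were chosen with earlier results of these data known.

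Named transcripts were all os-named members, the 10 highest others, the 5 per direction with the largest change between tables, called genes and list members, of which some are not described. Positions and words came from the GENCODE M21 annotation and transcripts. Word sharing, positions and other splits, 13 in all, were chosen after seeing the data. A pseudocount of 0.1 was used for log2 ratios. Libraries were scaled with TMM in edgeR (4.0.16) under R (4.3.3), with a prior count of 0.5, and DESeq2 (1.42.0) size factors were an alternative. A value of 0 leaves room for 3 counts (0.115 and 0.105 CPM), by counting error only. The test was checked on simulated data. Python (3.11.15), numpy (2.4.6), pandas (2.3.3), scipy (1.17.1) and matplotlib (3.10.9) were used.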

Additional observations from a re-analysis of the deposited data

How the results depend on the processing

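A threshold of 1 TPM gave 358 members and 0.25 TPM gave 1041, and the same threshold in the alignment-based table gave 435 transcripts. Using 1 library alone gave 838 to 871. The share of members reaching the threshold after alignment was 74.7% at 0.1 TPM, 31% at 1 TPM, 59.4% by posterior mean TPM, 76.8% among members with 50 or more counts, 51.2% among members of genes with 1 transcript, and 61.5% to 62.2% by 1 library. The log2 ratio of the tables was -0.35 and -0.27 with pseudocounts of 0.5 and 1, and -0.55 to -0.42 by library. Counts and gene sums kept it within 1 SD. The log2 ratio of sense over antisense was 2.52 from alignment-free TPM, 2.82 and 2.53 with pseudocounts of 0.5 and 1, and 3.08 to 3.34 by library. The number of member genes called between libraries was 4 with library size (3 higher in replicate 1), 4 with spike-in scaling (3 higher in replicate 2, where the median of all genes moved to 0.27), 4 at a mean of 5 counts and 0 at 50, where fewer genes were tested. Only 71 members shared at least 50% of their bases with an opposite exon. For the 24 members with most shared words, alternatives chosen after seeing the data gave -2.82 over 20% of words, -2.71 over 80%, -3.81 for genes elsewhere, -0.37 for either strand, -6.52 for members with 50 or more counts and -1.35 with a pseudocount of 1. All of these ratios kept their sign.

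No paired analysis was possible because the 2 libraries form 1 group. Depth limits the low members, 157 of which had under 10 counts in a library.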

Other observations

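An antisense gene outside the member set, picked after its values were seen, differed between the libraries. Six3os1, antisense to the homeobox gene Six3, had 1.51 TPM in replicate 1 and 0.08 TPM in replicate 2 in the alignment-based gene table. These came from 94 and 1 expected counts (exact adjusted p 4.81e-27, the binomial test over all genes). In the alignment-free table the contrast was smaller, at 1.57 and 0.602 TPM summed over the gene. Six3 itself moved the same way, at 2.11 and 0.09 TPM from 95 and 4 expected counts (exact adjusted p 1.24e-23, the same test). Choroid plexus and striatal markers were also higher in replicate 1, and their part in these values was not tested.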
